A study of Mus musculus with 32 samples.

Results

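The genes described here are Myc and 9 genes of nucleolar ribosome biogenesis (Pes1, Bop1, Wdr12, Fbl, Nop56, Nop58, Ncl, Npm1 and Polr1b), followed through mouse hearts that carried mutant or wild-type CHCHD10. The 10 symbols were listed by name, with earlier results of these data known. Of these, 9 were matched to a measured gene among the 19505 genes of the array. Nop56 was not analysed here. Each of the 9 had 1 probe set, and each lay above the background on average.

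CHCHD10 (C10) is a small protein of the mitochondrial intermembrane space, and OMA1 is a stress-activated protease of the inner mitochondrial membrane. Gene expression was measured in the hearts of 32 mice, 1 array per heart and 4 hearts in each of 8 groups. At 14 weeks of age the groups were C10 WT OMA1+/-, C10 WT OMA1-/-, C10 G58R OMA1+/- and C10 G58R OMA1-/-. At 20 weeks they were C10 WT OMA1+/-, C10 WT OMA1-/-, C10 S59L OMA1+/- and C10 S59L OMA1-/-. The mutations are numbered as in human CHCHD10 and were carried on 1 allele, so that a wild-type copy remained, and every control heart was heterozygous or null for OMA1. Each group held 2 males and 2 females, except C10 WT OMA1-/- at 14 weeks (3 males) and C10 G58R OMA1+/- (3 females). G58R and S59L hearts differed in age as well as in mutation, and these cannot be told apart. According to the study few pups of the genotype C10 G58R OMA1-/- lived past the newborn period, so these hearts came from survivors. Whole hearts were profiled, and a lower level from fewer cells of a type and from less RNA per cell cannot be told apart.

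Ribosomes are built in the nucleolus, where RNA polymerase I copies the ribosomal RNA genes and a sequence of assembly factors modifies, cuts and folds the transcript onto ribosomal proteins. Myc is a transcription factor that binds DNA with its partner Max, mainly at E-boxes, and is known for raising genes of ribosome biogenesis. In the adult heart Myc is low and is known to be induced by growth stimuli and haemodynamic stress.

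Log2 levels are given below as deposited, and log2 fold changes are given ± SE. A difference was called where limma's two-sided test, adjusted by the Benjamini-Hochberg method over all 19505 genes, gave a p below 0.05. The background was set at a log2 level of 6.59, below which 95% of 1410 odorant and pheromone receptor genes lay on average. The mean of 9911 genes over all arrays, mutant hearts included, exceeded the background. All 8 cardiomyocyte markers lay above it in every group. Oma1 itself was lower on average in all 4 OMA1-/- groups, though no difference passed (adjusted p = 0.175 to 0.804), and the position of its probes relative to the deletion is not known here. Markers of adipocytes were high on 7 arrays, namely C10 WT OMA1+/- replicates 1 to 3 at 14 weeks (mean log2 level 10.5 to 11.1), C10 G58R OMA1-/- replicate 1 (9.17), C10 S59L OMA1+/- replicate 1 (11.6), and C10 S59L OMA1-/- replicates 1 and 2 (11.8 and 13.5). For several results that rest on these arrays, the value without them is also given. Where they are left out, C10 WT OMA1+/- at 14 weeks keeps 1 array, whose spread is assumed to be that of the other groups. C10 S59L OMA1-/- replicate 2 also had a high mean of lymphocyte markers (8.24, against 4.58 to 5.30 in the rest of its group). The part of these in the results was not tested.

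Upstream sequence from RefSeq (mouse build GRCm38.p6) was given for 6 of the 10 genes, namely Pes1, Wdr12, Nop58, Ncl, Polr1b and Nop56, with 8 annotated start sites. It is shown for Pes1, Wdr12 and Nop58, whose levels moved most among these in the comparisons below, and for Ncl, whose levels moved little. The canonical E-box CACGTG and its variants CACGCG and CATGTG were searched on both strands from 250 bases before to 50 bases after each start site, and capitals mark a match. The Pes1 start site is shown in a window of 30 bases that shares its first 10 bases with the end of the Pes1 upstream sequence.
Pes1 upstream, chr11:3963725-3963974, plus strand: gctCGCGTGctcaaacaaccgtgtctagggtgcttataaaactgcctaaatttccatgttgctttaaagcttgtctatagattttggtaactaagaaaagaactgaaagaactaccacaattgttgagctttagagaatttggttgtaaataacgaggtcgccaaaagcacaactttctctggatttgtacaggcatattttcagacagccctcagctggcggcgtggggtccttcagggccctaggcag
Pes1 start site, chr11:3963965-3963994, plus strand: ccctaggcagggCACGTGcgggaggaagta
Wdr12 upstream, chr1:60098501-60098750, minus strand: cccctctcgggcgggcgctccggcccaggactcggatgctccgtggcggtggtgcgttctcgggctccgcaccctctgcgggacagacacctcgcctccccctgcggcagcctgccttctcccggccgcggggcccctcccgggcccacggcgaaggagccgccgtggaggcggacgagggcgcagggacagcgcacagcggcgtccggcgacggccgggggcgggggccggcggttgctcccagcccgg
Nop58 upstream, chr1:59684756-59684960, plus strand: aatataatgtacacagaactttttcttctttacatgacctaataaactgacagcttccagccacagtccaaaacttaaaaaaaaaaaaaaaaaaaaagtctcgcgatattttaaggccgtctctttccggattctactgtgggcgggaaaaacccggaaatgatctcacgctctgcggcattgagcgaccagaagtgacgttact
Ncl upstream, chr1:86359456-86359705, minus strand: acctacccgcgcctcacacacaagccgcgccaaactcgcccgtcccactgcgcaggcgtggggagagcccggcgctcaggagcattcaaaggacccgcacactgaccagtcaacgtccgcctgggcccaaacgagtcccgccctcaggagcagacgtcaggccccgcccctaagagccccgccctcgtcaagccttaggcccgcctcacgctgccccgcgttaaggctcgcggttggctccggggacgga

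The canonical E-box was found in Pes1 alone among these 6 genes, at bases 3 to 8 after the start site. Pes1 also held the CACGCG variant, read on the other strand as CGCGTG, at -247. CATGTG was found only at downstream start sites of Wdr12, and the stretches of Wdr12, Nop58 and Ncl shown above held no match. For comparison, 8.09% of all 27025 genes held CACGTG in the same window, 10.49% held CACGCG and 15.89% held CATGTG. The element TGATGNAA, which ATF4 binds together with C/EBP factors, was in none of the 6 and in 4.51% of all genes. A match is a description of the letters and no evidence of binding.

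**Figure D1:**
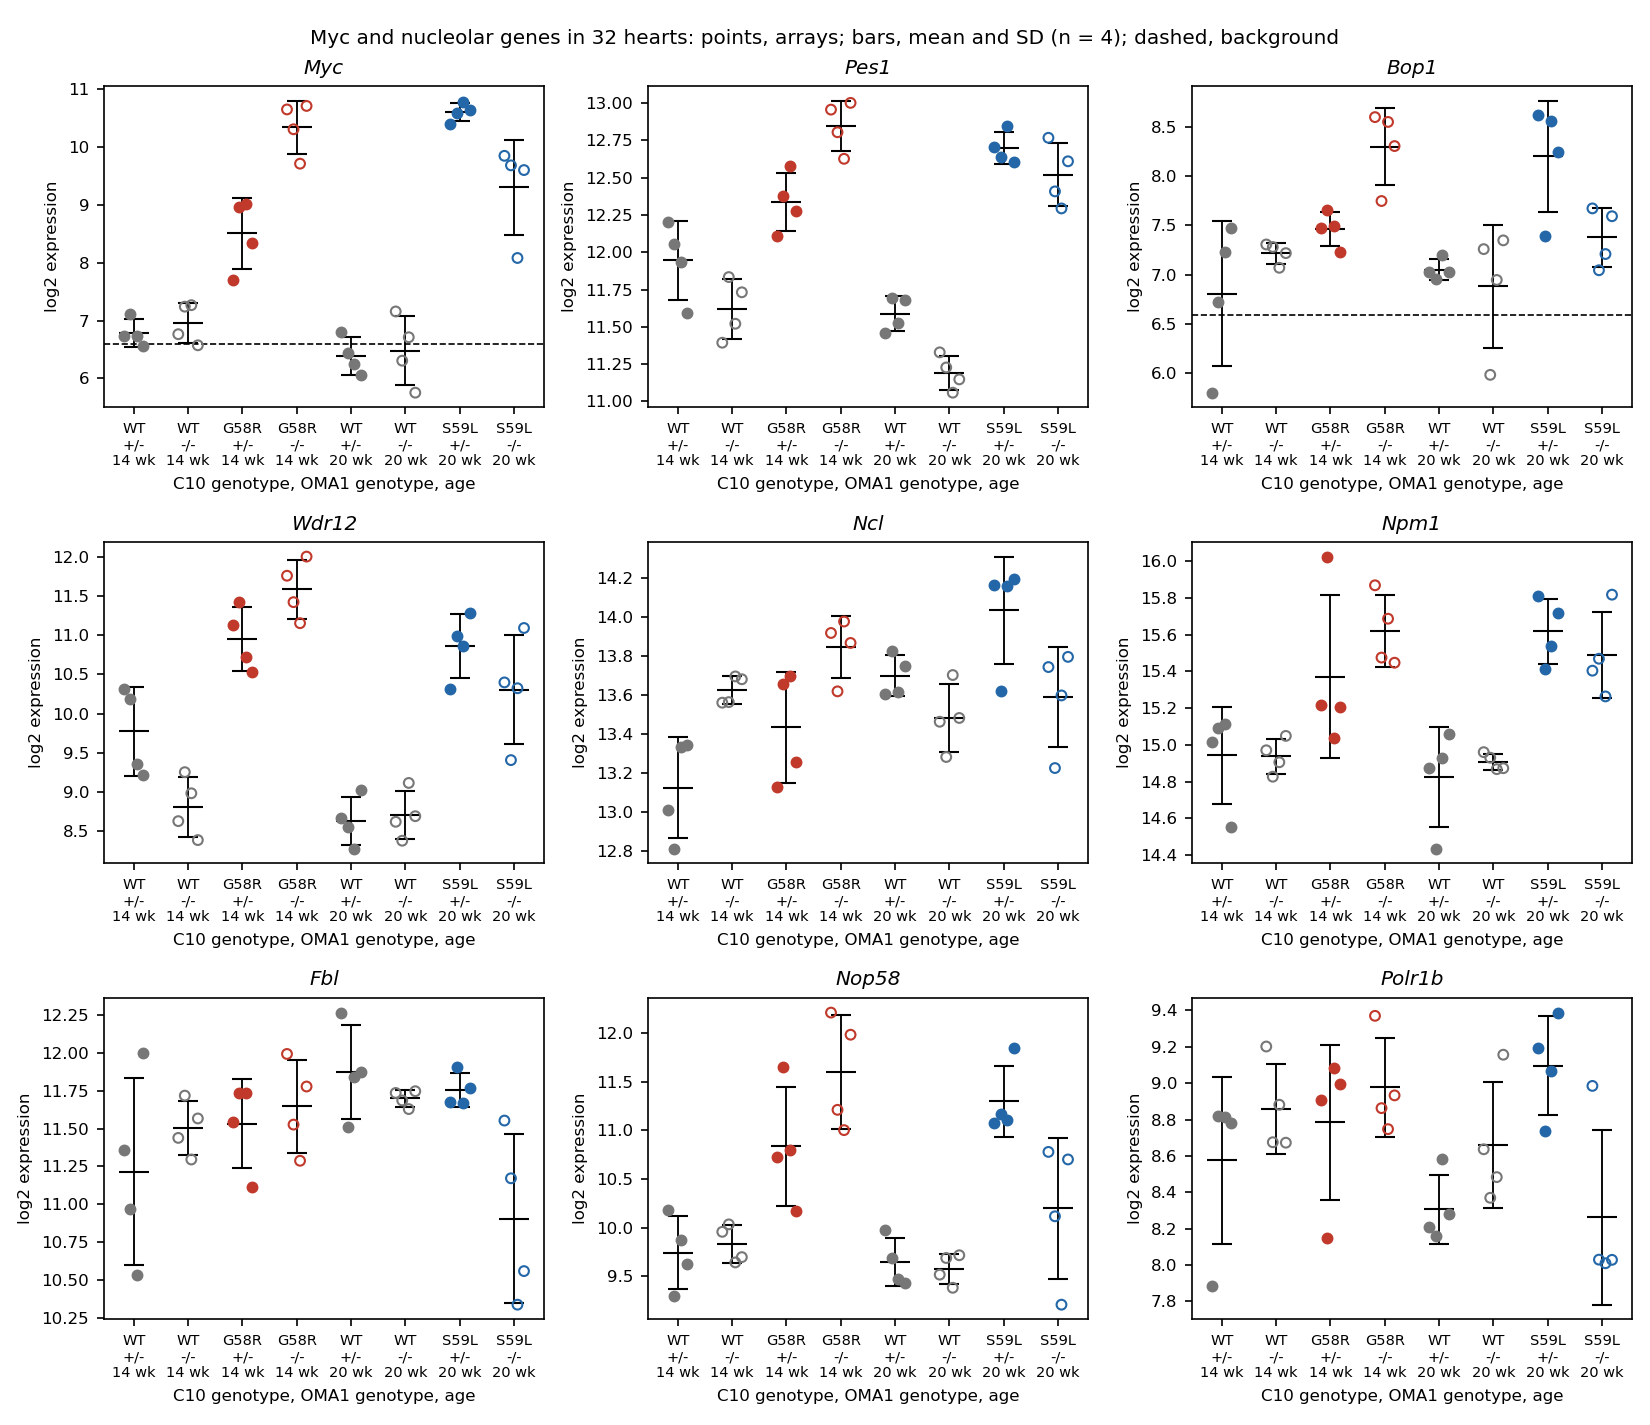
Log2 expression (y axis) of Myc and 8 nucleolar genes in 8 groups of 4 hearts (x axis: C10 genotype, OMA1 genotype, age). Points are single arrays (filled, OMA1+/-; open, OMA1-/-), bars are the mean and SD, and the dashed line in the Myc and Bop1 panels is the background of 6.59. All 16 arrays of mutant hearts lie above all 16 wild-type arrays for Myc.

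Myc (chr15:61985341-61990361) was close to the background in wild-type hearts. In the 14-week C10 WT groups it read 6.73, 7.12, 6.73 and 6.56 with OMA1+/- and 6.76, 7.24, 7.27 and 6.57 with OMA1-/-. In the 20-week C10 WT groups it read 6.81, 6.44, 6.25 and 6.05 with OMA1+/- and 7.16, 6.30, 6.71 and 5.75 with OMA1-/-. Of these 16 wild-type arrays, 7 lay below the background, and the means of both 20-week wild-type groups did (6.39 and 6.48). In C10 G58R hearts the levels were 7.71, 8.97, 9.02 and 8.34 with OMA1+/- and 10.65, 10.31, 9.72 and 10.71 with OMA1-/-. In C10 S59L hearts they were 10.40, 10.59, 10.78 and 10.65 with OMA1+/- and 9.85, 9.69, 8.08 and 9.60 with OMA1-/-. No mutant array overlapped with a wild-type array, the lowest mutant value being 7.71 and the highest wild-type value 7.27. By mean the mutant groups were ordered C10 G58R OMA1+/- (8.51 ± 0.62, SD, n = 4), C10 S59L OMA1-/- (9.31 ± 0.82), C10 G58R OMA1-/- (10.35 ± 0.46) and C10 S59L OMA1+/- (10.60 ± 0.16), and each group's range overlapped with that of its neighbour.

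Myc thus rose in all 4 comparisons of mutant with wild-type hearts. On OMA1+/- the log2 fold change was 1.72 ± 0.29 with G58R (3.30-fold, adjusted p = 0.0030) and 4.22 ± 0.34 with S59L (18.6-fold, adjusted p = 1.79e-07). On OMA1-/- it was 3.39 ± 0.29 with G58R (10.5-fold, adjusted p = 1.63e-07) and 2.83 ± 0.34 with S59L (7.09-fold, adjusted p = 1.97e-05). With wild-type values below the background set to it, a choice made after seeing the data and not tested, the differences were at least 3.28-fold with G58R and 15.6-fold with S59L on OMA1+/-, and at least 10.4-fold and 5.83-fold on OMA1-/-. The 4 calls were kept under every alternative run with the test. Without the 7 arrays of high adipocyte markers the values were 1.95, 4.29, 3.29 and 2.36 in that order.

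Among relatives and partners of Myc, 13 genes of the Myc-Max-Mxd network were measured, Myc included. In C10 G58R OMA1+/- hearts Myc was the only one of them that passed. In C10 G58R OMA1-/- hearts 2 of the 13 were higher, Myc included, and 3 were lower, against 18.3% and 15.3% of all genes. There Mlx, a partner of the glucose-sensing factors of this network, rose by 1.35 ± 0.26, and Mga, a Max-binding repressor, fell by 0.96 ± 0.17. With S59L on OMA1+/-, Mlx rose by 0.91 ± 0.26 and Mga fell by 0.96 ± 0.22. The median of the 13 was -0.02, -0.25 and -0.11 in these comparisons, and that of all genes -0.03, -0.10 and -0.15.

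The PeBoW complex of Pes1, Bop1 and Wdr12 is needed to process the precursor of the large-subunit ribosomal RNA. Wdr12 (chr1:60071361-60098500), its WD-repeat subunit, read 10.32, 10.19, 9.36 and 9.22 in C10 WT OMA1+/- and 8.63, 9.25, 8.98 and 8.39 in C10 WT OMA1-/- hearts at 14 weeks. The C10 G58R hearts read 11.13, 11.43, 10.71 and 10.53 with OMA1+/- and 11.76, 11.42, 11.15 and 12.00 with OMA1-/-. All 8 G58R arrays were thus above all 8 wild-type arrays of their cohort, and the C10 WT OMA1+/- arrays split into 2 high and 2 low values. At 20 weeks Wdr12 read 8.67, 8.56, 8.28 and 9.02 in C10 WT OMA1+/- and 8.62, 8.38, 9.11 and 8.69 in C10 WT OMA1-/- hearts. In C10 S59L hearts it read 10.32, 10.98, 10.86 and 11.28 with OMA1+/- and 10.40, 9.41, 10.32 and 11.09 with OMA1-/-. Again no S59L array overlapped with wild type. The log2 fold change was 1.18 ± 0.29 (adjusted p = 0.0402) with G58R on OMA1+/-, 2.77 ± 0.29 (adjusted p = 1.73e-06) with G58R on OMA1-/-, 2.23 ± 0.30 (adjusted p = 2.64e-05) with S59L on OMA1+/- and 1.60 ± 0.30 (adjusted p = 8.22e-04) with S59L on OMA1-/-. The call with G58R on OMA1+/- was lost in 7 of 16 fits that omitted 1 array (0.99 to 1.36), with only the compared groups in the fit, with sex as a covariate and with quantile normalization. Without the 7 arrays of high adipocyte markers this value was 1.73 (adjusted p = 0.0144).

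Pes1 (chr11:3963975-3980004), the BRCT-domain subunit, read 12.21, 12.05, 11.93 and 11.59 in C10 WT OMA1+/- and 11.39, 11.83, 11.52 and 11.73 in C10 WT OMA1-/- hearts at 14 weeks. Levels in C10 G58R hearts were 12.11, 12.38, 12.58 and 12.28 with OMA1+/- and 12.96, 12.80, 12.63 and 13.00 with OMA1-/-. On OMA1+/- the G58R and wild-type values overlapped and the difference did not pass (0.39 ± 0.18, adjusted p = 0.272), whereas on OMA1-/- the groups lay apart and Pes1 rose by 1.23 ± 0.18 (adjusted p = 7.45e-05). At 20 weeks it read 11.46, 11.69, 11.52 and 11.68 in C10 WT OMA1+/- and 11.33, 11.23, 11.06 and 11.15 in C10 WT OMA1-/- hearts. The S59L hearts read 12.71, 12.64, 12.84 and 12.60 with OMA1+/- and 12.77, 12.41, 12.29 and 12.61 with OMA1-/-. Both S59L groups lay above wild type, with rises of 1.11 ± 0.16 (adjusted p = 5.86e-05) and 1.33 ± 0.16 (adjusted p = 1.98e-05).

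Bop1 (chr15:76452988-76477249), the third subunit, lay near the background in wild-type hearts, with 2 arrays below it. It read between 5.80 and 7.47 in the 16 wild-type hearts. C10 G58R hearts gave 7.47, 7.65, 7.50 and 7.23 with OMA1+/- and 8.60, 7.75, 8.55 and 8.31 with OMA1-/-. C10 S59L hearts gave 8.62, 7.39, 8.56 and 8.24 with OMA1+/- and 7.67, 7.04, 7.21 and 7.59 with OMA1-/-. Only the C10 G58R OMA1-/- group lay wholly above all wild-type arrays. Bop1 rose by 1.08 ± 0.28 with G58R on OMA1-/- (adjusted p = 0.00668) and by 1.15 ± 0.30 with S59L on OMA1+/- (adjusted p = 0.00633), and its differences with G58R on OMA1+/- (0.66 ± 0.28, adjusted p = 0.232) and with S59L on OMA1-/- (0.50 ± 0.30, adjusted p = 0.217) did not pass. The former was -0.0095 without the 7 arrays of high adipocyte markers.

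Nop58, Fbl and Nop56 are core proteins of box C/D snoRNPs, the particles that guide 2'-O-methylation of ribosomal RNA. Nop58 (chr1:59684961-59711510) read 10.18, 9.30, 9.87 and 9.62 in C10 WT OMA1+/- and 9.96, 10.03, 9.64 and 9.70 in C10 WT OMA1-/- hearts at 14 weeks. In C10 G58R hearts it read 10.72, 11.66, 10.80 and 10.17 with OMA1+/- and 12.21, 11.21, 11.003 and 11.98 with OMA1-/-. The lowest G58R OMA1+/- array fell just under the highest wild-type array, and the G58R OMA1-/- arrays stood clear of all wild-type arrays. The difference with G58R was 1.09 ± 0.30 on OMA1+/- and did not pass (adjusted p = 0.0687), though it passed without C10 G58R OMA1+/- replicate 4 (1.31, adjusted p = 0.0327) and with the adipocyte marker mean as a covariate (1.41, adjusted p = 0.0357). On OMA1-/- Nop58 rose by 1.77 ± 0.30 (adjusted p = 2.66e-04). At 20 weeks it read between 9.38 and 9.98 in the 8 wild-type hearts, and 11.08, 11.16, 11.11 and 11.84 in C10 S59L OMA1+/- hearts, a rise of 1.65 ± 0.29 (adjusted p = 2.97e-04). In C10 S59L OMA1-/- hearts it read 10.78, 10.12, 9.21 and 10.70, with 1 array below all wild-type arrays, and the difference did not pass (0.62 ± 0.29, adjusted p = 0.108). Without that array, replicate 3, it passed (0.96, adjusted p = 0.00759).

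Fbl (chr7:28168893-28179269), the methyltransferase of the same particles, passed with neither G58R comparison nor with S59L on OMA1+/-. It ranged from 10.54 to 12.00 in C10 WT OMA1+/- hearts at 14 weeks and lay within that range on all 8 G58R arrays. Its differences with G58R were 0.32 ± 0.26 and 0.14 ± 0.26 on OMA1+/- and OMA1-/- (adjusted p = 0.549 and 0.703). At 20 weeks it read 12.27, 11.51, 11.84 and 11.88 in C10 WT OMA1+/- hearts and 11.68, 11.91, 11.67 and 11.77 in C10 S59L OMA1+/- hearts, which overlapped (-0.12 ± 0.23, adjusted p = 0.709). On OMA1-/- it read 11.74, 11.69, 11.63 and 11.75 in C10 WT hearts against 11.55, 11.17, 10.34 and 10.56 in C10 S59L hearts. All 4 S59L values were lower, and Fbl fell by 0.79 ± 0.23 (adjusted p = 0.0174). This call was lost without C10 S59L OMA1-/- replicate 3 (-0.60) or replicate 4 (-0.68), and with only the compared groups in the fit.

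Npm1 and Ncl, nucleophosmin and nucleolin, are abundant nucleolar RNA chaperones. Npm1 (chr11:33152498-33164142) read between 14.43 and 15.11 in all 16 wild-type hearts. The C10 G58R hearts read 15.22, 16.02, 15.04 and 15.21 with OMA1+/- and 15.87, 15.48, 15.69 and 15.45 with OMA1-/-. The C10 S59L hearts read 15.81, 15.41, 15.54 and 15.72 with OMA1+/- and 15.40, 15.47, 15.26 and 15.82 with OMA1-/-. Apart from 1 array of C10 G58R OMA1+/- hearts, every mutant value was above every wild-type value. Npm1 rose by 0.68 ± 0.21 with G58R on OMA1-/- (adjusted p = 0.019), by 0.79 ± 0.18 with S59L on OMA1+/- (adjusted p = 0.00275) and by 0.58 ± 0.18 with S59L on OMA1-/- (adjusted p = 0.0231), and its difference with G58R on OMA1+/- was 0.43 ± 0.21 (adjusted p = 0.296). These 3 calls were lost with quantile normalization (0.34, 0.38 and 0.22). The call with G58R was also lost without C10 G58R OMA1-/- replicate 1 (0.60) and without the 7 arrays of high adipocyte markers (0.60, adjusted p = 0.0540). The call with S59L on OMA1-/- was lost without C10 S59L OMA1-/- replicate 4 (0.47), without the 7 arrays (0.63, adjusted p = 0.0592), with the adipocyte covariate (0.53) and with only the compared groups in the fit (0.58). With the adipocyte covariate Npm1 passed with G58R on OMA1+/- (0.86, adjusted p = 0.0422). Without the 7 arrays that difference was 0.82.

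Ncl (chr1:86344719-86359455) passed in none of these 4 comparisons. It read between 12.81 and 13.83 in wild-type hearts, 13.13, 13.66, 13.70 and 13.26 in C10 G58R OMA1+/- hearts and 13.92, 13.62, 13.98 and 13.87 in C10 G58R OMA1-/- hearts. Levels in C10 S59L hearts were 14.16, 13.62, 14.16 and 14.20 with OMA1+/- and 13.74, 13.23, 13.60 and 13.80 with OMA1-/-. The log2 differences lay between 0.11 and 0.33 (adjusted p = 0.166 to 0.687), and with quantile normalization 3 of them turned negative.

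Polr1b (chr2:129100970-129128060), the second-largest subunit of RNA polymerase I, rose only with S59L on OMA1+/-. There it read 9.19, 8.74, 9.07 and 9.39 against 8.21, 8.16, 8.58 and 8.28 in C10 WT OMA1+/- hearts at 20 weeks, which did not overlap, and the rise was 0.79 ± 0.24 (adjusted p = 0.0170). This call was lost without C10 S59L OMA1+/- replicate 4 (0.69) and with quantile normalization (0.51). On OMA1-/- it read 8.99, 8.03, 8.01 and 8.03 in C10 S59L hearts and 8.64, 8.37, 8.48 and 9.16 in C10 WT hearts. In that comparison 3 of 4 S59L arrays lay below all wild-type arrays and the remaining array lay among them (-0.40 ± 0.24, adjusted p = 0.224). Without that array, replicate 1, the difference passed (-0.64, adjusted p = 0.0412). With G58R the differences were 0.21 ± 0.25 and 0.12 ± 0.25.

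**Figure D2:**
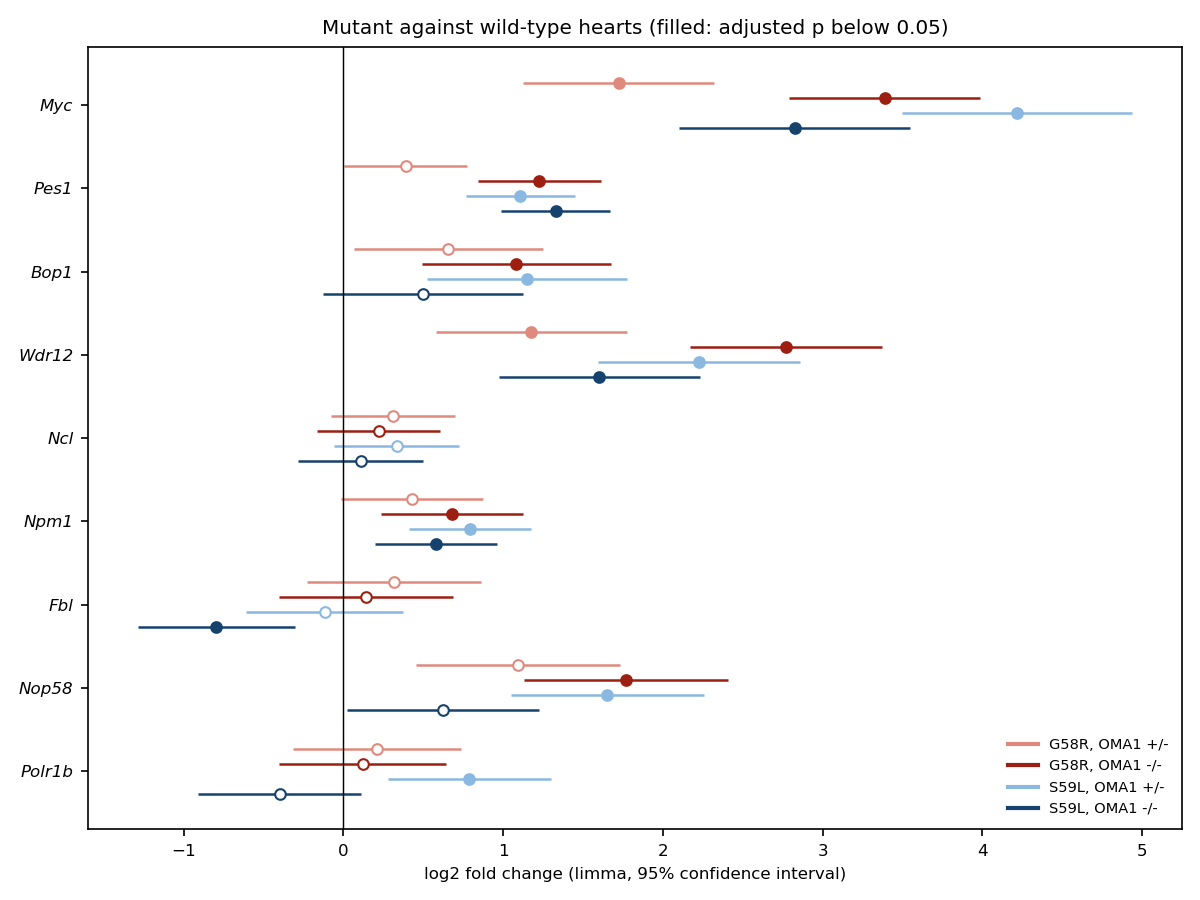
Log2 fold change (x axis) of Myc and 8 nucleolar genes (y axis) in mutant against wild-type hearts, by mutation and OMA1 genotype. Points are limma estimates from 4 against 4 hearts with 95% confidence intervals, and filled points have an adjusted p below 0.05. Myc has the largest estimate in all 4 comparisons, and those of Ncl lie between 0.11 and 0.33.

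Counted together, 2 of the 9 measured genes were called higher with G58R on OMA1+/-, where 1.98% of all genes were called in either direction and 1.51% higher. With G58R on OMA1-/- 6 of 9 were called higher, against 33.6% of all genes in either direction and 18.3% higher. With S59L on OMA1+/- 7 of 9 were higher, against 36.5% in either direction and 18.6% higher. With S59L on OMA1-/- 4 were higher and 1 lower, against 29.8% in either direction, 15.8% higher and 14% lower. The median log2 fold change of the 9 was 0.43, 1.08, 1.11 and 0.58 in that order, and that of all genes -0.03, -0.10, -0.15 and -0.10. Over the 9911 genes whose mean over all arrays lay above the background, the medians were 0.14, 0.21, 0.28 and 0.21. Of these genes 3.28%, 47.0%, 47.6% and 41.3% were called in either direction. All 9 members entered by this mean, which includes mutant hearts, although Myc averaged below the background in both 20-week wild-type groups (6.39 and 6.48). Genes raised in mutant hearts can enter in this way, and how far that shifts these medians and percentages was not tested.

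Markers of other cell types also differed in these comparisons. With G58R on OMA1-/- 6 of 9 macrophage markers were higher and 6 of 7 endothelial markers lower. With S59L 8 of 9 macrophage markers were higher on either OMA1 background, and 6 and 4 of 7 endothelial markers were lower on OMA1+/- and OMA1-/-. The mean of the macrophage markers ranged from 8.57 to 10.96 over the wild-type arrays at 14 weeks, 9.79 to 10.64 in C10 G58R OMA1+/-, 10.53 to 11.17 in C10 G58R OMA1-/-, 11.52 to 12.50 in C10 S59L OMA1+/- and 10.56 to 12.37 in C10 S59L OMA1-/- hearts, and from 8.90 to 9.52 in wild-type hearts at 20 weeks. All 9 lay above the background in every group. Their part in the results was not tested. Of 9 markers of proliferating cells, 6 or 7 lay below the background in every group and none was called higher in these 4 comparisons. Of 8 cardiomyocyte markers 4 were lower with G58R on OMA1-/-, 3 with S59L on OMA1+/- and 5 with S59L on OMA1-/-. Of 7 fibroblast markers 1, 3 and 1 were higher in the same order. With G58R on OMA1+/- none of the macrophage, endothelial, fibroblast, cardiomyocyte or proliferating-cell markers was called, and 1 of 6 adipocyte and 2 of 6 lymphocyte markers were lower. All 6 lymphocyte markers lay below the background on average in both groups of that comparison. With S59L on OMA1-/- 3 of 6 adipocyte markers were higher.

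OMA1 loss was compared within each C10 genotype, in comparisons that share their groups with those above. In wild-type hearts no member was called at 14 weeks, where 0% of all genes were, or at 20 weeks, where 0.00513% of all genes were. By limma 2276 genes and 2 members had an unadjusted p below 0.05 at 14 weeks, and 1113 genes and 1 member at 20 weeks. Without C10 WT OMA1+/- replicate 4, 1 member was called at 14 weeks. Myc differed by 0.18 and 0.09 between OMA1-/- and OMA1+/- wild-type hearts at 14 and 20 weeks, and its values overlapped.

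In C10 G58R hearts Myc was 1.84 ± 0.29 higher with OMA1-/- than with OMA1+/- (3.58-fold, adjusted p = 6.81e-04), with the lowest OMA1-/- array at 9.72 and the highest OMA1+/- array at 9.02. It was the only member called, against 4.49% of all genes in either direction and 3.25% higher. The other 8 estimates were positive, from 0.11 ± 0.26 for Fbl to 0.84 ± 0.28 for Bop1 (adjusted p = 0.115), with Nop58 at 0.77 ± 0.30 (adjusted p = 0.196), Wdr12 at 0.63 ± 0.29 and Pes1 at 0.51 ± 0.18 (adjusted p = 0.143). Bop1 passed without C10 WT OMA1+/- replicate 1 (adjusted p = 0.0300) and Nop58 without C10 G58R OMA1+/- replicate 2 (1.04, adjusted p = 0.0495). The estimates of Fbl and Polr1b turned slightly negative with some arrays left out.

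In C10 S59L hearts the same 9 estimates were negative. Myc was -1.30 ± 0.34 (adjusted p = 0.0959), Nop58 -1.10 ± 0.29 (adjusted p = 0.0912), Fbl -0.85 ± 0.23 (adjusted p = 0.114), Polr1b -0.83 ± 0.24 (adjusted p = 0.134) and Bop1 -0.82 ± 0.30 (adjusted p = 0.266), with the smallest for Npm1 at -0.13. No member passed, against 0.846% of all genes. By limma 2040 of all measured genes had an unadjusted p below 0.05, and 6 members were among them. All 4 OMA1-/- values of Myc lay below all 4 OMA1+/- values. Its estimate was -0.89 (adjusted p = 0.198) without C10 S59L OMA1-/- replicate 3. It passed with all 32 arrays in the fit, and without the 7 arrays of high adipocyte markers (-1.83, adjusted p = 0.0306). Fbl also passed without those 7 arrays (-1.33, adjusted p = 0.00872), and with the adipocyte covariate. Without C10 S59L OMA1-/- replicate 1, which is among those 7, Nop58 (-1.29), Fbl (-1.07) and Polr1b (-1.07) passed, and without replicate 4 Nop58 did (-1.26). Between these groups 0 of 9 macrophage markers were higher with OMA1-/- and 1 was lower.

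**Figure D3:**
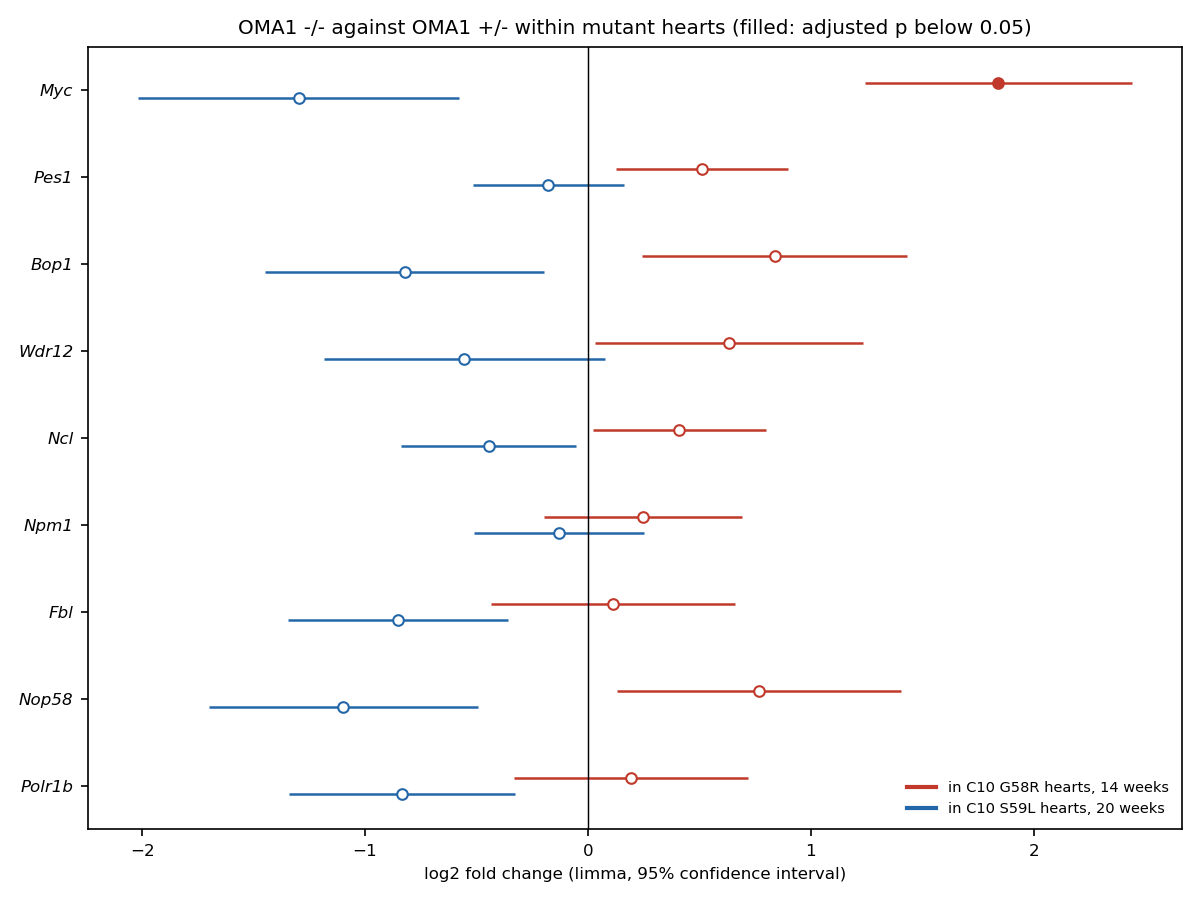
Log2 fold change (x axis) of Myc and 8 nucleolar genes (y axis) in OMA1-/- against OMA1+/- hearts, within C10 G58R (red) and within C10 S59L (blue) hearts. Points are limma estimates from 4 against 4 hearts with 95% confidence intervals, and filled points have an adjusted p below 0.05. The red estimates lie above 0 and the blue ones below for all 9 genes, with Myc at 1.84 and -1.30.

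The difference between these effects was tested over all 32 arrays. The effect of OMA1 loss was higher in G58R than in S59L hearts by 3.14 ± 0.46 for Myc (adjusted p = 4.80e-05), 1.86 ± 0.43 for Nop58 (adjusted p = 0.00754), 1.66 ± 0.42 for Bop1 (adjusted p = 0.0162) and 0.85 ± 0.25 for Ncl (adjusted p = 0.0376). These 4 of 9 compare with 4.91% of all genes in either direction and 3.66% higher. The other 5 did not pass, with estimates from 0.38 for Npm1 to 1.19 for Wdr12. The calls of Myc and Nop58 were kept under every alternative run. That of Bop1 was lost without the 7 arrays of high adipocyte markers (1.40), and that of Ncl in 10 of 32 fits that omitted 1 array (0.73 to 0.99) and with 3 further alternatives. In the same difference 3 of 9 macrophage markers were higher (median 1.38) and 1 of 7 endothelial and 1 of 8 cardiomyocyte markers were lower, and their part in it was not tested. Age, mutation and survivorship differ between the cohorts, and their parts cannot be told apart.

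The interaction of G58R with OMA1 loss, that is whether the effect of G58R differed between OMA1-/- and OMA1+/- hearts, was 1.67 ± 0.40 for Myc (adjusted p = 0.0316) and 1.59 ± 0.40 for Wdr12 (adjusted p = 0.0375), against 3.13% of all genes called. The call of Myc was lost in 10 of 16 fits that omitted 1 array (1.40 to 1.88) and that of Wdr12 in 11 (1.41 to 1.78). For Wdr12 the difference between OMA1-/- and OMA1+/- was -0.96 ± 0.29 in wild-type hearts (adjusted p = 0.306) and 0.63 ± 0.29 in G58R hearts (adjusted p = 0.276), with overlapping groups in both. Both were lost with the adipocyte marker mean as a covariate (1.54 and 1.22) and without the 7 arrays of high adipocyte markers (1.34 and 0.98). With S59L no member's interaction passed, against 0.0718% of all genes, Myc being at -1.39 ± 0.49 (adjusted p = 0.412). For that interaction 1584 of all measured genes had an unadjusted p below 0.05 by limma, and 3 members were among them.

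On OMA1+/- the effect of G58R was lower than that of S59L for Myc by 2.49 on the log2 scale (-2.49 ± 0.46, adjusted p = 8.51e-04), where the S59L effect is taken against wild-type hearts with Myc below the background on average, and for Pes1 (-0.72 ± 0.22, adjusted p = 0.0422), against 8.33% of all genes. In the same difference 7 of 9 macrophage markers were lower (median -2.77), 1 of 6 adipocyte markers was lower and 2 of 8 cardiomyocyte and 1 of 7 endothelial markers were higher, and their part in the result was not tested. Of all called genes 36.4% were higher in this difference, and 47.2% with quantile normalization. The call of Pes1 was lost in 12 of 32 fits that omitted 1 array (-0.84 to -0.63) and with 5 other alternatives. Without the 7 arrays of high adipocyte markers the estimate was -0.36 for Pes1 and -2.34 for Myc. The remaining 7 members did not pass.

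A further 120 measured genes of ribosome assembly were listed (RNA polymerase I machinery, snoRNP proteins, small- and large-subunit assembly factors and nucleolar scaffold), of which 109 lay above the background on average. With G58R on OMA1+/- 7 of them were higher and 0 lower, against 1.51% and 0.472% of all genes. Of the 120 estimates 108 were positive, and their median was 0.45. Among these 7 were Rrn3, the initiation factor that recruits RNA polymerase I (1.01 ± 0.18), Nhp2, a core protein of box H/ACA snoRNPs (1.58 ± 0.23), Nop2, a large-subunit ribosomal RNA methyltransferase (1.38 ± 0.27), and Ddx21, a nucleolar RNA helicase (1.09 ± 0.25). The count rested on few arrays, with 4 without C10 G58R OMA1+/- replicate 2, 2 without replicate 3, and 29 without the 7 arrays of high adipocyte markers, where 12.9% of all genes were called.

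With G58R on OMA1-/- 81 of the 120 were higher and 4 lower (67.5% higher, median 0.94), against 18.3% and 15.3% of all genes. Nhp2 rose by 2.68 ± 0.23, Eif6, which keeps the large subunit from joining early, by 2.33 ± 0.25, Wdr18, of the rixosome, by 2.30 ± 0.23 and Heatr1, of the small-subunit processome, by 2.19 ± 0.25. The polymerase I subunit Polr1e rose by 2.15 ± 0.28, and Nop53, a large-subunit processing factor, fell by 0.85 ± 0.22. With S59L on OMA1+/- 72 were higher and 5 lower (60% higher, median 0.85), against 18.6% and 17.9% of all genes. Wdr74, a large-subunit maturation factor, was at 3.0 ± 0.34, Nhp2 at 2.57 ± 0.28, Rpf2, of the 5S particle, at 2.14 ± 0.25 and Rsl1d1 at 2.0 ± 0.28. Gar1, a partner of Nhp2 in box H/ACA particles, fell by 0.94 ± 0.19. With S59L on OMA1-/- 52 were higher and 4 lower (43.3% higher, median 0.54), against 15.8% and 14% of all genes. There Wdr74 rose by 2.15 ± 0.34, and Rrp9, a box C/D protein of the U3 particle, fell by 0.81 ± 0.22. Without C10 S59L OMA1-/- replicate 4, 34 were higher. Over the 9911 genes above the background 47.0%, 47.6% and 41.3% were called in either direction, in the order of these comparisons.

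By list, members included, the small-subunit factors had 33 of 46 higher with G58R on OMA1-/- and 29 of 46 with S59L on OMA1+/-, and none lower in either. Of the 13 measured genes of the polymerase I machinery, 9 were higher in each of these comparisons and 0 lower. With S59L on OMA1-/- 25 of the 46 and 4 of the 13 were higher. Over all genes 18.3%, 18.6% and 15.8% were higher, in the order of these comparisons. The 4 measured box C/D proteins differed, with 1 higher (Nop58) with G58R on OMA1-/- and with S59L on OMA1+/-. With S59L on OMA1-/- 0 of them were higher and 2 lower (Fbl and Rrp9).

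**Figure D4:**
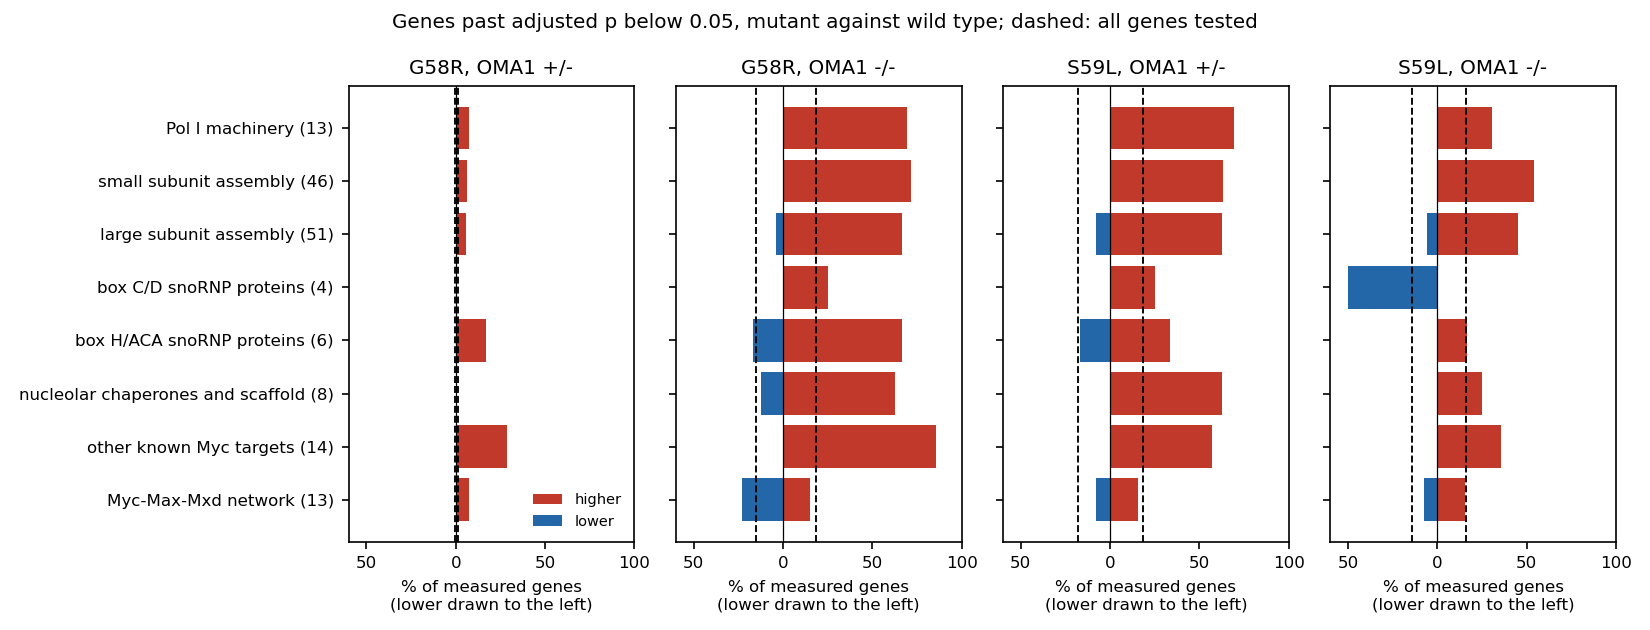
Percentage of measured genes called higher (red, to the right) or lower (blue, to the left) in each list (y axis, number of measured genes in parentheses; members included), in 4 comparisons of mutant with wild-type hearts. Dashed lines are the percentages over all 19505 genes. With G58R on OMA1-/- and S59L on OMA1+/- 9 of 13 genes of the polymerase I machinery are higher, and of the Myc-Max-Mxd network 2 of 13 are.

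Of the 14 genes listed as known Myc targets outside the nucleolus, 12 were higher with G58R on OMA1-/-, 8 with S59L on OMA1+/-, 5 with S59L on OMA1-/- and 4 with G58R on OMA1+/-, and 0 were lower in these comparisons. Over all genes 18.3%, 18.6%, 15.8% and 1.51% were higher in that order. Odc1, ornithine decarboxylase of polyamine synthesis, rose by 2.90 ± 0.25 with G58R on OMA1-/-. Srm, spermidine synthase of the same pathway, rose by 3.06 ± 0.28 with S59L on OMA1+/- and by 1.43 ± 0.30 with G58R on OMA1+/-. Eif4a1, the helicase of translation initiation, rose by 2.07 ± 0.22 with G58R on OMA1-/- and 2.12 ± 0.21 with S59L on OMA1+/-, and Ccnd2, a D-type cyclin, by 2.64 ± 0.31 with S59L on OMA1+/-.

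The assembly genes were also compared by OMA1 genotype within mutant hearts. In C10 G58R hearts 12 of the 120 (10%) were higher and 0 lower with OMA1-/-, against 3.25% and 1.24% of all genes. Among the 12 were Dhx37, a small-subunit helicase (1.63 ± 0.31), and Rrp12 (1.36 ± 0.30). That count was 3, 5 and 4 without C10 G58R OMA1+/- replicate 4, C10 G58R OMA1-/- replicate 1 and replicate 2. In C10 S59L hearts 0 were higher and 3 lower, against 0.22% and 0.625% of all genes, and 19 estimates were positive. The 3 were Bysl, a small-subunit factor (-1.43 ± 0.22), Dhx37 (-1.07 ± 0.22) and Ddx54 (-0.85 ± 0.18). In the test of the difference 23 of the 120 were higher in G58R and 0 lower (19.2% higher), against 3.66% and 1.26% of all genes. Rrp12 was at 2.74 ± 0.52, Dhx37 at 2.69 ± 0.39 and Bysl at 2.20 ± 0.32. Over the 9911 genes above the background 7.16%, 1.42% and 8.02% were called in either direction, in the order of these comparisons.

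The promoters of the listed assembly genes, members included, were searched as above, and 108 of 133 had a RefSeq sequence. CACGTG was in 22 of them (20.37%), against 8.09% of all genes, and CACGCG in 34 (31.48%), against 10.49%. CATGTG was in 14 (12.96%), against 15.89%, and TGATGNAA in 4 (3.7%), against 4.51%. Their median GC content was 58.3%, against 52.7% over all promoters, and the part of base composition in these shares was not tested. Among those of these genes that were measured, 18 of 22 with CACGTG and 48 of 81 without it were higher with G58R on OMA1-/-, and the median log2 fold changes were 1.29 and 0.87. With S59L on OMA1+/- 17 of 22 and 45 of 81 were higher, and the medians were 1.21 and 0.80. For CACGCG the counts were 21 of 33 with it and 45 of 70 without it with G58R on OMA1-/- (medians 0.92 and 0.96), and 22 of 33 and 40 of 70 with S59L on OMA1+/- (medians 0.90 and 0.81). Over all genes, with or without a motif, 18.3% and 18.6% were higher in these comparisons. The same split over all genes was not made, and the part of either motif or of Myc in these counts was not tested.

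Likeness of pattern was measured as Pearson's r of log2 levels over the 32 arrays, given as a description, since the arrays of a group share its genotype and age. Among 9586 named genes above the background outside the listed 10, those most like Myc were Comtd1 (0.947), Lrrc51 (0.945), Coq8b (0.943), Slc7a3 (0.938), an arginine and lysine transporter, and Slc3a2 (0.938), the heavy chain of amino acid transporters. Those most like the mean of the 8 other measured members were Xpot, the tRNA exporter (0.956), Lars, leucyl-tRNA synthetase (0.953), Slc7a3 (0.950), Sars, seryl-tRNA synthetase (0.949), and Atf4, a transcription factor of the integrated stress response (0.949). Genes entered by their mean over all 32 arrays, mutant hearts included. Slc7a3 averaged 5.54 to 5.98 in the 4 wild-type groups, below the background, and 8.53 to 11.9 in the mutant groups. Coq8b averaged below it in C10 WT OMA1+/- hearts at 20 weeks (6.29). Mean log2 levels of Atf4 ran from 12.04 to 12.69 in the 4 wild-type groups, and were 14.63 in C10 G58R OMA1+/-, 15.09 in C10 G58R OMA1-/-, 15.76 in C10 S59L OMA1+/- and 14.02 in C10 S59L OMA1-/- hearts. Among the members, Pes1 was the most like Myc (0.913), followed by Nop58 (0.856), Wdr12 (0.834), Npm1 (0.823) and Bop1 (0.738), and Ncl (0.528), Polr1b (0.334) and Fbl (0.009) the least. Among the 9911 genes above the background, these lay at percentiles 99.7, 97.4, 95.9, 95.1, 86.8, 67.2, 54.4 and 38.3 of likeness to Myc, in that order. With the group means taken out, r with Myc was 0.54 for Pes1 and Nop58, 0.37 for Fbl and 0.23 or less for the others.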

How the data were processed

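Total RNA of 32 hearts was hybridised to Affymetrix Clariom S Mouse arrays. The authors summarised probes to genes and normalised the arrays by SST-RMA in Transcriptome Analysis Console with its defaults, and the deposited unit is log2. No source used here says whether all arrays were normalised together. The table held 28846 probe sets, of which 6640 were controls and 2634 carried no gene symbol. The remaining 19572 named 19505 genes, and the probe set with the highest mean stood for the 55 genes with several. No pair of arrays held identical values, and array medians lay between 6.43 and 6.75. Arrays have no read depth, and 4 arrays per group limit the precision.

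Group means were fitted with limma 3.58.1 (lmFit, contrasts.fit, eBayes) in R 4.3.3 on the 16 arrays of a cohort, or on all 32 for differences between cohorts. In all 12 contrasts were tested, two-sided, with Benjamini-Hochberg adjustment over 19505 genes. The fit was tested on simulated data. Each array is a separate animal per the labels. The 10 members, the other gene lists and the tests were chosen with earlier results of these data known, and the study displayed Myc from these hearts. Genes named from a list are among the 3 called members with the smallest p in a contrast, and genes like the members are the 5 of highest correlation. Genes below the background in both groups are not named. Alternatives were the compared groups alone, all 32 arrays, sex, replicate number or adipocyte markers as covariates, quantile normalization, a filter at the background, trended and robust eBayes, the mean of probe sets, and arrays left out. The counts of the other assembly genes under these were added after seeing the data. Promoters are RefSeq windows of GRCm38.p6.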

Additional observations from a re-analysis of the deposited data

Results flagged for a closer look

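Of 72 sets of 4 replicates, that is 9 genes in 8 groups, 5 held an array that stood far from the other 3, where chance gives about 1 in 20. Myc was 8.08 in C10 S59L OMA1-/- replicate 3, against 9.60 to 9.85 in the others. Nop58 was 11.84 in C10 S59L OMA1+/- replicate 4, against 11.08 to 11.16, and Ncl was 13.62 in replicate 2 of that group, against 14.16 to 14.20. Polr1b was 7.89 in C10 WT OMA1+/- replicate 1 at 14 weeks, against 8.78 to 8.82, and 8.99 in C10 S59L OMA1-/- replicate 1, against 8.01 to 8.03.

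Effects that differed between groups by a test of the difference were found for 6 genes. The effect of OMA1 loss differed between G58R and S59L hearts for Myc (3.14, adjusted p = 4.80e-05), Nop58 (1.86, adjusted p = 0.00754), Bop1 (1.66, adjusted p = 0.0162) and Ncl (0.85, adjusted p = 0.0376). The effect of G58R differed by OMA1 genotype for Myc (1.67, adjusted p = 0.0316) and Wdr12 (1.59, adjusted p = 0.0375), and differed from that of S59L on OMA1+/- for Myc (-2.49, adjusted p = 8.51e-04) and Pes1 (-0.72, adjusted p = 0.0422). All are limma tests over 19505 genes.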

How the results depend on the processing

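Of 2 members called with G58R on OMA1+/-, 1 was called with only the compared groups, with sex or with quantile normalization, and 4 with the adipocyte covariate (1 to 3 with 1 array left out). With G58R on OMA1-/- the count was 5 to 6 with 1 array left out, with S59L on OMA1+/- 6 to 7, and with S59L on OMA1-/- 3 to 6 (3 with only the compared groups). For OMA1 loss it was 1 to 2 in G58R hearts (2 with only the compared groups), 0 to 3 in S59L hearts (1 with all 32 arrays or the adipocyte covariate, 2 without the 7 arrays of high adipocyte markers), and 0 to 1 and 0 in wild-type hearts at 14 and 20 weeks. The interaction with G58R gave 0 to 3 (0 with the adipocyte covariate or without the 7 arrays) and that with S59L 0. The difference between G58R and S59L gave 1 to 2 (1 with the replicate block, the adipocyte covariate, quantile normalization, trended and robust eBayes, or without the 7 arrays), and that between the effects of OMA1 loss 3 to 6.

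Estimates that changed sign were all uncalled ones. Without the 7 arrays these were Bop1 (-0.0095) and Fbl (-0.46) with G58R on OMA1+/-, Polr1b (-0.010) with G58R on OMA1-/-, and Fbl (-0.0024) for OMA1 loss in G58R hearts. With the adipocyte covariate Fbl was -0.025 with G58R on OMA1+/-. Quantile normalization moved the median of all genes by up to 0.123 (S59L on OMA1+/-) and gave Ncl -0.16, Fbl -0.17 and Polr1b -0.12 with G58R on OMA1-/-, and Ncl -0.10 and -0.31 with S59L on OMA1+/- and OMA1-/-. With 1 array left out, Polr1b ranged from -0.021 to 0.42 and from -0.010 to 0.24 with G58R on OMA1+/- and OMA1-/-, Fbl from -0.24 to 0.013 with S59L on OMA1+/-, and for OMA1 loss Fbl from -0.026 to 0.23 and Polr1b from -0.017 to 0.29 in G58R hearts and Myc from -0.13 to 0.34 in wild-type hearts at 20 weeks. The causes were not tested.

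Over 48 pairs of same-numbered replicates, the correlation of deviations from group means ran from -0.32 to 0.27 (median 0.053), and 17 exceeded 0.1. The numbers were not taken as pairs, and arrays of different number were not compared for reference. Apart from that of Pes1 in the difference between G58R and S59L, the replicate block changed no call of a member. Among the 120 other assembly genes, those higher with G58R on OMA1+/- were 1 with only the compared groups (0.323% of all genes called), 30 with the adipocyte covariate (9.83%) and 11 above the background, and those higher with S59L on OMA1-/- were 32 with only the compared groups or quantile normalization. Signals of Myc and Bop1 near the background limit their fold changes.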
